A study of Danio rerio with 12 samples.

Results

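The eye field is the patch of anterior neural plate from which both retinas form, and it is set up by a small set of homeodomain transcription factors. The genes described here are 9 members of that set: the retinal homeobox genes rx1, rx2 and rx3, the sine oculis homologues six3a, six3b and six6b, the paired box genes pax6a and pax6b, and the LIM homeobox gene lhx2b. They were taken by symbol from the 31901 genes of the deposited expression table, where each symbol was found, and the rule that picks them uses no measured value, although the set was proposed with earlier results of these data known. In the zebrafish, rx3 is needed for the optic vesicles to grow out of the forebrain, and the other factors act in the vesicle and the retina, several of them also in the rest of the brain. The pax6 genes are in addition expressed in hindbrain, spinal cord and the endocrine pancreas, and six3 and lhx2 genes in the forebrain outside the eye.

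The libraries were made from RNA of intact wild-type zebrafish embryos, exposed from 6 to 24 hours post fertilization (hpf) in 3 groups of 4 libraries. The vehicle group received 0.1% dimethyl sulfoxide (DMSO). The other groups received 75 µM GW9662, an inhibitor of the nuclear receptor PPARγ, or 25 µM rosiglitazone, an agonist of that receptor. Groups follow the library titles and descriptions. The treatment tag of the same records disagrees with them: the libraries titled GW9662 carry TBBPA there, and those titled rosiglitazone carry DMSO. No library was moved on that account. Whether the compound solutions also held DMSO is not stated. Another tag, named batch, holds a different hour for every library (24 to 35 hpf) and rises through the groups from DMSO to rosiglitazone, so this tag and the exposure cannot be told apart. Separate clutches are not stated as the source of the replicates, so p-values measure the spread between these libraries, which may be technical.

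Levels are FPKM values as deposited, fragment counts scaled to gene length and library size, and may be set side by side between genes. The table held 12772174 to 22746500 fragments per library, and the 9 genes were covered by 43 fragments (six3a, in its lowest library) to 2925 fragments (pax6a, in its highest). All 9 genes were among the 14433 that reached 1 FPKM in at least 4 of 12 libraries and were tested. Differences are on the log2(FPKM + 0.5) scale, which understates the change of low genes, with standard errors (SE) and Benjamini-Hochberg adjusted p-values from limma over all genes tested, and a gene was called at an adjusted p under 0.05. Folds given beside these differences are those of FPKM + 0.5 and so are smaller than the folds of the levels themselves. In RNA from whole embryos, fewer cells of a type and less RNA per cell cannot be told apart.

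The genes lie on 9 different chromosomes. In the coordinates of the deposited table, which come with no named genome build, six6b (ENSDARG00000031316) spans chromosome 20 from 20531002 to 20533865 on the minus strand. The table puts rx1 (ENSDARG00000071684) on chromosome 22 from 4997784 to 5006801, rx2 (ENSDARG00000040321) on chromosome 2 from 55833425 to 55861351, and rx3 (ENSDARG00000052893) on chromosome 21 from 10756154 to 10759223. Its entry for six3a (ENSDARG00000058008) runs on chromosome 13 from 10258007 to 10261383, and that for six3b (ENSDARG00000054879) on chromosome 12 from 25600685 to 25603341. For pax6a (ENSDARG00000103379) it gives chromosome 25 from 15029041 to 15049781, for pax6b (ENSDARG00000045936) chromosome 7 from 15871156 to 15900606, and for lhx2b (ENSDARG00000031222) chromosome 8 from 3085120 to 3101392. The labels describe both strand-marking and unmarked library preparations, so reads of overlapping genes may not have been separated. The overlapping entries were low: BX537274.1, antisense to six3a, reached at most 0.140 FPKM, and BX649231.1, whose span holds six6b, at most 0.228 FPKM.

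In the GW9662 embryos the retinal factors did not move as one. Compared with DMSO, 5 of the genes were lower (six6b, rx1, rx2, pax6b and pax6a), rx3 and six3b were higher, and six3a and lhx2b were not called. That is 7 called of 9, read against 36.0% of all genes tested in this comparison (18.9% higher and 17.1% lower). The same 7 did not overlap between the groups, as did not 37.0% of all genes tested. In rosiglitazone embryos only six6b was called, and it was lower, where 17.0% of all genes tested were called (9.29% higher and 7.68% lower). It was also the only one whose libraries lay all below those of DMSO, against 9.60% of all genes tested. The members' median log2 difference was -0.14 in GW9662 against 0.01 over all genes tested, and 0.06 in rosiglitazone against 0.00. Both comparisons share the DMSO libraries.

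**Figure D1:**
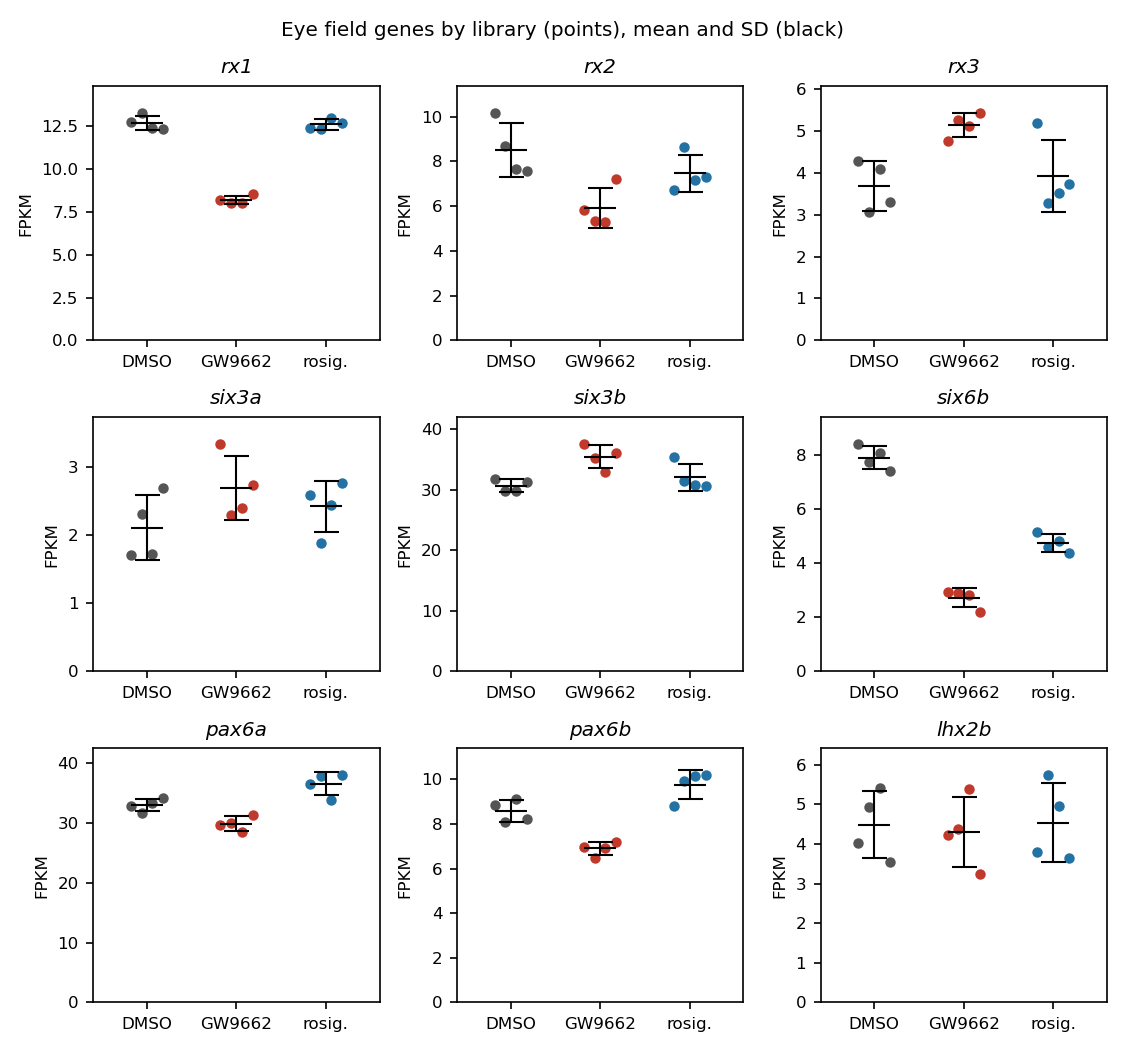
Level of each of the 9 genes in every library, in FPKM, by group; each point is 1 library, and bars are the mean and SD. The 4 GW9662 points of six6b lie between 2.19 and 2.94 FPKM, under all DMSO points (7.41 to 8.40) and all rosiglitazone points (4.38 to 5.17), while those of lhx2b overlap between all groups.

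Of the 9 genes, six6b had the largest difference from DMSO in both exposures. It is a sine oculis family factor of the retina and hypothalamus that keeps retinal progenitors dividing in other vertebrates. It stood at 8.40, 7.73, 8.06 and 7.41 FPKM in the DMSO libraries, at 2.94, 2.91, 2.83 and 2.19 FPKM after GW9662, and at 5.17, 4.59, 4.81 and 4.38 FPKM after rosiglitazone. The 3 groups did not overlap, with DMSO highest and GW9662 lowest. Against DMSO, six6b fell in GW9662 by 1.39 (SE 0.0887) on the log2 scale, or 2.62-fold in FPKM + 0.5 (limma adjusted p = 7.71e-08). In rosiglitazone it fell by 0.68 (SE 0.0887), or 1.61-fold (limma adjusted p = 1.73e-04). The direct comparison put GW9662 lower than rosiglitazone by -0.71 (SE 0.0887, limma adjusted p = 5.64e-05). Among all genes tested, its mean level moved from percentile 56.4 in DMSO to 27.5 in GW9662 and 42.0 in rosiglitazone. It rested on 172 to 236 fragments per DMSO library and 57 to 106 per GW9662 library. Its paralog six6a, chosen for mention after its values were seen, averaged 2.57 ± 0.278 FPKM (SD, n = 4) in DMSO, 2.52 ± 0.608 in GW9662 and 2.25 ± 0.269 in rosiglitazone and was called in neither comparison with DMSO (limma adjusted p = 0.858 and 0.501).

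The retinal homeobox genes rx1 and rx2 are expressed in the optic vesicle and retina after rx3. In the DMSO libraries rx1 was at 12.8, 13.3, 12.4 and 12.3 FPKM, in GW9662 at 8.19, 8.05, 8.01 and 8.56, and in rosiglitazone at 12.4, 12.4, 13.0 and 12.7. All GW9662 libraries were lower than every other library, and the DMSO and rosiglitazone libraries overlapped. This gene fell in GW9662 by 0.60 (SE 0.0472), or 1.52-fold, against DMSO (limma adjusted p = 5.26e-07). Between rosiglitazone and DMSO the difference was -0.01, with a 95% interval from -0.11 to 0.09 (limma adjusted p = 0.936).

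Levels of rx2 were 10.1, 8.68, 7.68 and 7.55 FPKM in DMSO, 5.82, 5.35, 5.30 and 7.22 in GW9662, and 6.71, 8.63, 7.18 and 7.32 in rosiglitazone. The GW9662 libraries were again under all DMSO libraries, but replicate 4 of that group came close and lay within the rosiglitazone range. The gene fell by 0.49 (SE 0.114), or 1.40-fold, in GW9662 against DMSO (limma adjusted p = 0.00445), and its difference in rosiglitazone was -0.18, with a 95% interval from -0.42 to 0.07 (limma adjusted p = 0.344).

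The earliest gene of this family, rx3, went the other way in GW9662. Its levels were 4.28, 3.05, 4.08 and 3.30 FPKM in DMSO, 4.76, 5.25, 5.11 and 5.42 in GW9662, and 5.18, 3.27, 3.51 and 3.73 in rosiglitazone. Every GW9662 library was above every DMSO library, and rosiglitazone replicate 1 lay inside the GW9662 range, with the other rosiglitazone libraries below it. In GW9662 rx3 rose by 0.44 (SE 0.130), or 1.36-fold, against DMSO (limma adjusted p = 0.0174); without DMSO replicate 2 the value was 0.37 and no longer called (limma adjusted p = 0.0562). Its difference in rosiglitazone was 0.07, with a 95% interval from -0.21 to 0.36 (limma adjusted p = 0.761).

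Ratios between related genes were taken within each library after adding 0.5 FPKM to numerator and denominator. Relative to the sum of rx1 and rx2, the level of rx3 was 0.193 ± 0.0272 (SD, n = 4) in DMSO, 0.386 ± 0.0274 in GW9662 and 0.216 ± 0.0506 in rosiglitazone. The GW9662 libraries, at 0.362, 0.414, 0.406 and 0.364, were above all others. The difference from DMSO was 1.01 on the log2 scale and that from rosiglitazone 0.86. Each had p = 0.0286 in an exact two-sided permutation test, the smallest that 4 against 4 libraries allow. After adjustment over the 12 comparisons of ratios each came to 0.171, so neither passed. A ratio can pass this adjustment only if most of the 12 comparisons reach that smallest p. Not passing therefore says little about the size of a difference, here and for the other ratios.

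**Figure D2:**
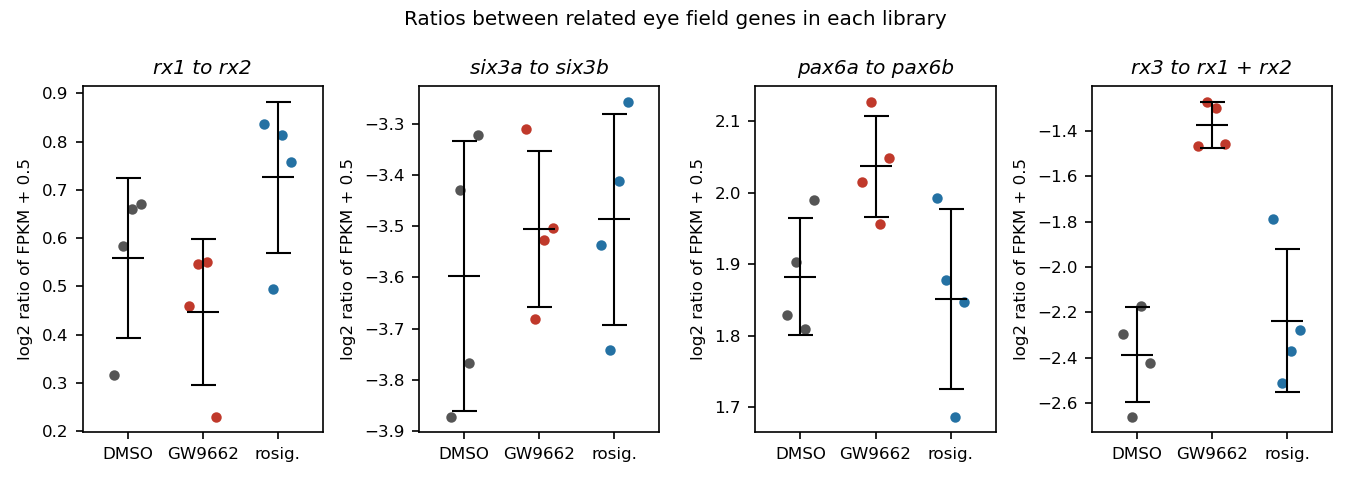
Ratios of FPKM + 0.5 between related genes in each library on a log2 axis, by group; each point is 1 library, and bars are the mean and SD. The ratio of rx3 to the sum of rx1 and rx2 is higher in all 4 GW9662 libraries than in any other library, while the ratio of six3a to six3b overlaps between all groups.

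The six3 genes act in the anterior neural plate, where they hold back Wnt signalling, and in the developing lens and retina. Of this pair, six3b was the more abundant, at 31.8, 29.8, 29.8 and 31.4 FPKM in DMSO, 37.5, 35.3, 32.9 and 36.1 in GW9662, and 35.4, 31.5, 30.7 and 30.7 in rosiglitazone. The GW9662 libraries were above all DMSO libraries, and the rosiglitazone libraries overlapped with both groups. The gene rose by 0.20 (SE 0.0556), or 1.15-fold, in GW9662 against DMSO (limma adjusted p = 0.0111), and its difference in rosiglitazone was 0.06 (limma adjusted p = 0.518). Its copy six3a was at 1.70, 2.31, 1.72 and 2.69 FPKM in DMSO, 3.33, 2.29, 2.399 and 2.73 in GW9662, and 2.59, 1.89, 2.44 and 2.76 in rosiglitazone. The 3 groups overlapped. The difference of six3a from DMSO was 0.30 in GW9662, with a 95% interval from -0.03 to 0.62 (limma adjusted p = 0.143), and 0.17 in rosiglitazone (limma adjusted p = 0.498). The ratio of six3a to six3b averaged 0.0836 in DMSO, 0.0884 in GW9662 and 0.0899 in rosiglitazone, and none of its 3 differences passed.

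The pax6 genes encode paired-domain factors needed for eye formation across animals. Levels of pax6a were 32.8, 31.7, 33.3 and 34.1 FPKM in DMSO, 29.7, 30.0, 28.4 and 31.4 in GW9662, and 36.5, 37.9, 33.8 and 38.0 in rosiglitazone. The GW9662 libraries were lowest without overlap, and the rosiglitazone libraries overlapped with DMSO through their replicate 3. In GW9662 pax6a fell by 0.14 (SE 0.0482) against DMSO (limma adjusted p = 0.0374). This small change was not called when any of DMSO replicates 1, 3 or 4 or GW9662 replicates 1, 2 or 3 was left out, with a limma adjusted p of up to 0.109. In rosiglitazone its difference was 0.15 (limma adjusted p = 0.0556), which was called without rosiglitazone replicate 3 (limma adjusted p = 0.0237).

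Its copy pax6b showed the same order of groups, at 8.87, 8.10, 9.13 and 8.22 FPKM in DMSO, 6.98, 6.48, 6.95 and 7.20 in GW9662, and 8.79, 9.94, 10.2 and 10.2 in rosiglitazone. All GW9662 libraries were below all others, and rosiglitazone replicate 1 lay inside the DMSO range. The gene fell by 0.29 (SE 0.0649), or 1.23-fold, in GW9662 against DMSO (limma adjusted p = 0.00316). In rosiglitazone its difference was 0.18 (limma adjusted p = 0.0824), called without rosiglitazone replicate 1 (limma adjusted p = 0.0259). The ratio of pax6a to pax6b averaged 3.69 in DMSO, 4.11 in GW9662 and 3.62 in rosiglitazone. Its difference between GW9662 and DMSO, 0.15 on the log2 scale, did not pass (exact two-sided permutation p = 0.0571, adjusted p = 0.171).

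The LIM homeobox gene lhx2b, needed in zebrafish for optic vesicle patterning and for crossing of the forebrain commissures, differed little between groups and much within them. It was at 4.02, 4.94, 5.41 and 3.56 FPKM in DMSO, 4.22, 4.37, 5.39 and 3.24 in GW9662, and 3.81, 5.73, 4.96 and 3.64 in rosiglitazone. The groups overlapped over most of their ranges. Its spread within a group was 3.08 to 3.90 times the spread that fragment counting alone would give, where that of rx1 was 0.804 to 1.05 times. The 95% interval of its difference from DMSO ran from -0.42 to 0.31 in GW9662 (limma adjusted p = 0.834) and from -0.35 to 0.37 in rosiglitazone (limma adjusted p = 0.978), so changes up to these bounds were not excluded at that level.

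**Figure D3:**
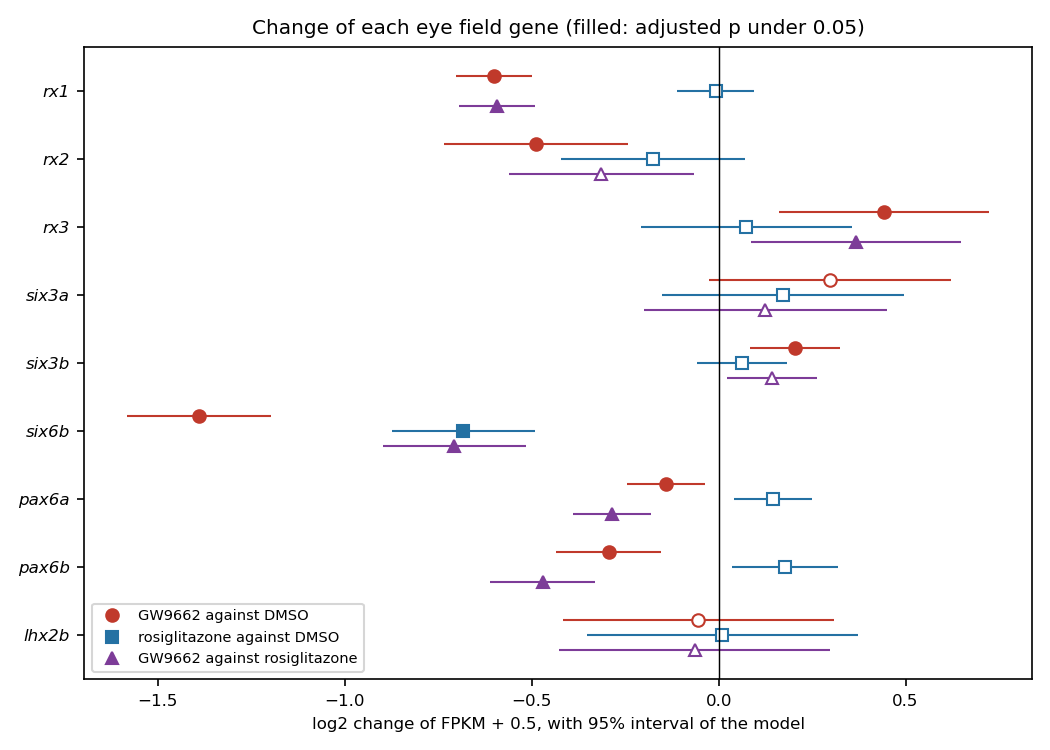
Log2 difference of each gene on the log2(FPKM + 0.5) scale, for both exposures against DMSO and for GW9662 against rosiglitazone, with 95% intervals from limma that are not adjusted for the number of genes; filled symbols passed the adjusted threshold. In GW9662 against DMSO, six6b lies at -1.39 and rx1 at -0.60, rx3 lies at 0.44, and the interval of lhx2b spans 0.

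Set directly against each other, GW9662 and rosiglitazone embryos differed in 5 of the 9 genes, read against 30.5% of all genes tested. Besides six6b, levels were lower in GW9662 for rx1 (difference -0.59, limma adjusted p = 9.80e-07), pax6b (-0.47, limma adjusted p = 1.24e-04) and pax6a (-0.29, limma adjusted p = 6.03e-04). These 4 lay below the rosiglitazone libraries without overlap, as did 14.0% of all genes tested (29.4% did not overlap in either direction). The higher level of rx3 (0.37, limma adjusted p = 0.0483) was called in only 8 of 22 alternative settings, over which the limma adjusted p ran from 0.00474 to 0.127. Differences of rx2 (-0.31, limma adjusted p = 0.0539) and six3b (0.14, limma adjusted p = 0.0687) were not called.

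The order of the mean levels was the same in rosiglitazone as in DMSO and changed in GW9662. In DMSO embryos pax6a and six3b were highest with overlapping ranges, followed by rx1, then by pax6b, rx2 and six6b, each overlapping with its neighbour, then by lhx2b and rx3, and last by six3a. After GW9662, six3b stood above pax6a without overlap, and six6b was next to six3a at the bottom of the order, their ranges overlapping. There rx3 stood above lhx2b, also with overlapping ranges. In rosiglitazone embryos six6b overlapped with lhx2b. The summed level of the 9 genes was 112 ± 2.24 FPKM (SD, n = 4) in DMSO, 101 ± 3.17 in GW9662 and 114 ± 2.66 in rosiglitazone. The share of six6b in that sum was 7.08% in DMSO, 2.69% in GW9662 and 4.15% in rosiglitazone.

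Other regulators of the eye field and optic cup were mixed. Of 17 tested, 2 were higher and 6 lower in GW9662 than in DMSO, and 3 were higher and 1 lower in rosiglitazone. Over all genes tested, 18.9% were higher and 17.1% lower in GW9662, and 9.29% and 7.68% in rosiglitazone. Of the MEIS genes, which act upstream of Pax6 in the lens of mice, meis1a, meis2a and meis2b were among those lower in GW9662. Mean levels of meis1a were 31.5 ± 1.37, 24.3 ± 0.934 and 36.1 ± 1.49 FPKM (SD, n = 4) in DMSO, GW9662 and rosiglitazone, and those of meis2b 30.4 ± 1.246, 25.2 ± 0.612 and 38.9 ± 1.19. These 2 fell in GW9662, by 0.37 and 0.26 (limma adjusted p = 4.63e-05 and 3.31e-04), and both rose in rosiglitazone, by 0.19 and 0.35 (limma adjusted p = 0.0151 and 9.22e-05). A different pattern was seen for meis2a, which fell by 0.28 in GW9662 (limma adjusted p = 0.00133) and differed by -0.11 in rosiglitazone (limma adjusted p = 0.192). For meis1b, named after its values were seen, the differences were -0.13 and 0.12 (limma adjusted p = 0.0374 and 0.0936). The retinal gene mab21l1 fell by 0.32 in each exposure (limma adjusted p = 0.00226 in GW9662 and 0.00489 in rosiglitazone). Its paralog mab21l2, also named after its values were seen, differed by -0.17 and -0.09 and was not called (limma adjusted p = 0.126 and 0.517). Of 16 other six and pax genes tested, some of them also in other lists here, 5 were higher and 1 lower in GW9662. In rosiglitazone 3 of the 16 were higher and 1 lower.

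Genes of retinal progenitors and early retinal neurogenesis, a later step than the eye field, had more lower than higher calls in both exposures: of 15 tested, 6 were lower and 0 higher in GW9662, and 6 were lower and 1 higher in rosiglitazone. The shares of all genes tested that were lower were 17.1% and 7.68%. The list's medians were close to those of all genes, at -0.04 and -0.08. The forkhead gene foxn4, which in mice directs progenitors to amacrine and horizontal cells, fell by 0.88 in GW9662 and by 0.69 in rosiglitazone (limma adjusted p = 1.34e-06 and 5.28e-05).

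Signals around the eye field moved in both directions. In GW9662, 7 of 16 tested were higher and 4 lower, and in rosiglitazone 6 were higher and 1 lower, 7 called in all, or 4 when DMSO replicate 4 or rosiglitazone replicate 1 was left out. Over all genes tested, 36.0% were called in GW9662 and 17.0% in rosiglitazone. The BMP antagonist nog1 rose by 0.91 in GW9662 (limma adjusted p = 2.58e-06) and by 0.42 in rosiglitazone (limma adjusted p = 0.0041), and wnt8b, a Wnt ligand of the posterior forebrain and midbrain, by 0.78 and 0.61 (limma adjusted p = 1.83e-04 and 0.00312). The secreted Wnt antagonist sfrp5 fell by 0.40 in GW9662 (limma adjusted p = 2.48e-04). In the optic stalk list, 3 of 12 tested were higher and 0 lower in each exposure, where 18.9% and 9.29% of all genes tested were higher. In both exposures the 3 were pax2a, fgf8a and fgf3. Of these, pax2a rose by 0.51 and 0.26 (limma adjusted p = 1.01e-05 and 0.00679). In the same list vax1 differed by -0.33 and 0.02 (limma adjusted p = 0.0806 and 0.946). Whether these differences arose in the optic stalk was not tested.

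**Figure D4:**
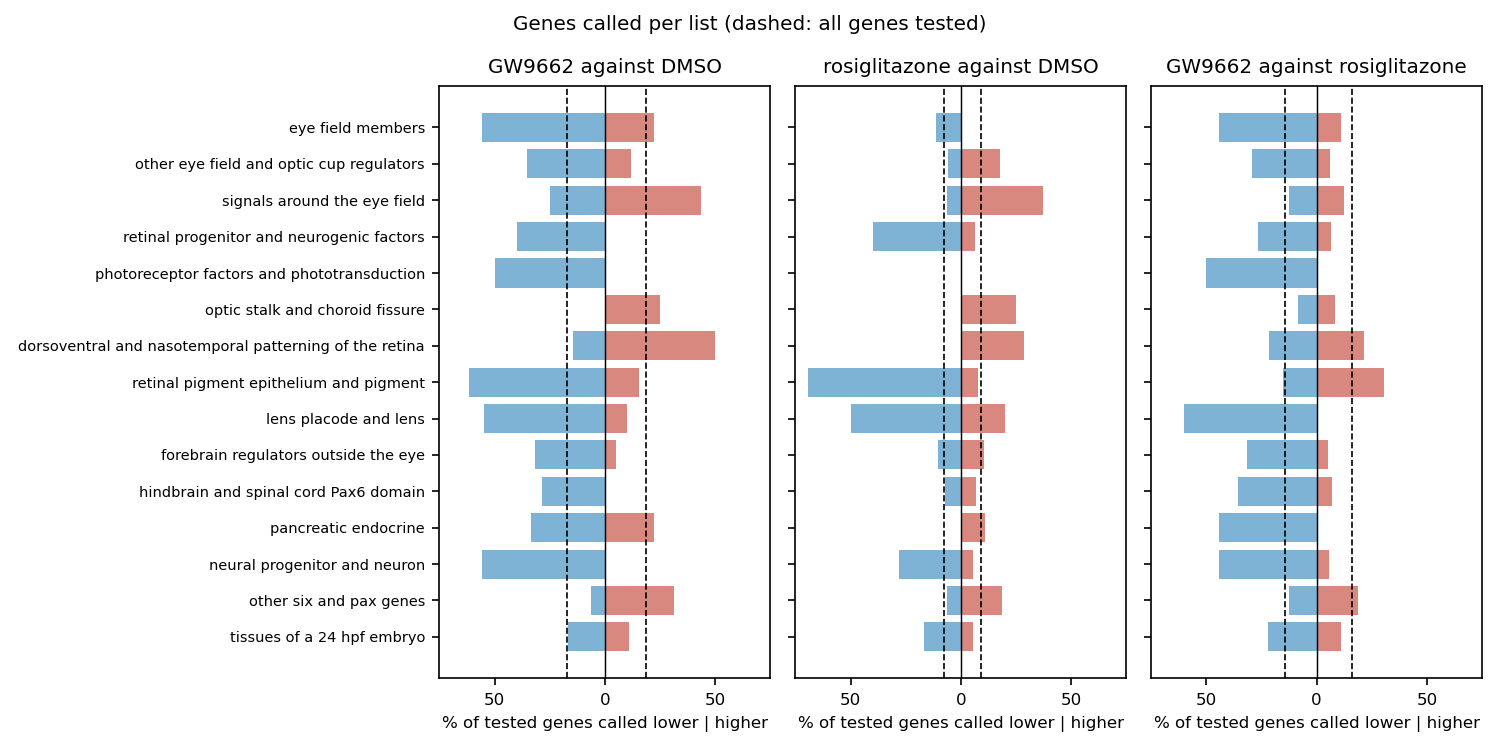
Percent of tested genes called lower (left, blue) and higher (right, red) in each gene list for the 3 comparisons; dashed lines mark the same percents over all genes tested. The lens list has 11 lower of 20 tested in GW9662 against DMSO, and the photoreceptor list rests on 2 tested genes. Some genes called lower were tested only through the groups where they were high.

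Tissues that also express some of the 9 genes, or that lie beside the retina, were compared by their marker lists, each read against all genes tested (18.9% higher and 17.1% lower in GW9662, 9.29% and 7.68% in rosiglitazone). The summed level of the 24 lens genes was 321 to 341 FPKM in DMSO, 113 to 129 in GW9662 and 177 to 210 in rosiglitazone, the order of groups seen for six6b. Of the 20 lens genes tested, 2 were higher and 11 lower in GW9662, and 4 were higher and 10 lower in rosiglitazone. Only the DMSO libraries of lim2.3 reached 1 FPKM, and no GW9662 library of mipa, mipb, lim2.4, bfsp1 or crygmx did. These genes were tested only through groups where they were high, so their lower calls are not independent of the filter. The crystallin cryaa, too low to be tested, averaged 0.255, 0.591 and 0.0689 FPKM in DMSO, GW9662 and rosiglitazone, on 24, 61 and 7 fragments per group. Within that list the crystallin cryba1b fell by 3.21 in GW9662 (limma adjusted p = 8.90e-10), while the early lens regulators foxe3 and pitx3 differed by 0.07 and -0.10 (limma adjusted p = 0.566 and 0.287). The same order was seen in skeletal muscle genes: tnnt3b averaged 141, 23.1 and 83.2 FPKM in DMSO, GW9662 and rosiglitazone, and myl1 1231, 513 and 927 FPKM. Both fell in GW9662, by 2.59 and 1.26 (limma adjusted p = 3.07e-11 and 5.65e-07), and in rosiglitazone, by 0.76 and 0.42 (limma adjusted p = 1.14e-05 and 0.0121). The muscle gene acta1b fell by 1.89 in GW9662 (limma adjusted p = 9.57e-11) but was not called in rosiglitazone (-0.17, limma adjusted p = 0.0633). Its rosiglitazone libraries (688 to 845 FPKM) overlapped with those of DMSO (827 to 880 FPKM). These muscle genes belong to a list of tissues across the embryo. Of its 18 genes tested, 2 were higher and 3 lower in GW9662, and 1 was higher and 3 lower in rosiglitazone. The 3 lower in GW9662 were the muscle genes, and the 2 higher, he1.1 and ctslb, rose by 0.21 and 0.68 (limma adjusted p = 0.00475 and 0.0073). The markers hbae3, krt4 and kdrl were not called there (limma adjusted p = 0.276, 0.658 and 0.814).

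Of 13 pigment epithelium and pigment cell genes tested, 2 were higher and 8 lower in GW9662, and 1 was higher and 9 lower in rosiglitazone. The gene oca2, called lower in both, reached 1 FPKM only in DMSO libraries (1.05 to 1.80), so its calls are not independent of the filter. Among them the melanin synthesis gene tyrp1b fell by 1.52 in GW9662 (limma adjusted p = 9.80e-08), while tfec, a regulator of pigment epithelium named after its values were seen, rose by 0.93 in GW9662 and by 0.66 in rosiglitazone (limma adjusted p = 5.37e-06 and 3.77e-04). The 19 neural genes summed to 1632 to 1685 FPKM in DMSO, 1196 to 1338 in GW9662 and 1456 to 1584 in rosiglitazone. Of 18 tested, 0 were higher and 10 lower in GW9662, and 1 was higher and 5 lower in rosiglitazone. The largest parts of the DMSO sum were tuba1a (396 FPKM), tubb5 (255) and sox3 (225), all called lower in GW9662. The neural markers sox2, elavl3 and sox19a differed there by -0.02, -0.11 and -0.11 (limma adjusted p = 0.861, 0.571 and 0.562). The 21 forebrain genes outside the eye summed to 170 to 177, 162 to 179 and 173 to 187 FPKM, overlapping between the groups. Of 19 tested, 1 was higher and 6 lower in GW9662, where 18.9% and 17.1% of all genes tested were. In total 36.8% were called there, against 36.0% of all genes tested, but most calls were lower. Of the lower genes, foxg1d was under 1 FPKM in all GW9662 libraries (0.583 to 0.956), so it reached the filter only through the other groups. In rosiglitazone 2 were higher and 2 lower. In the hindbrain and spinal cord list, where pax6 genes are expressed, 0 of 14 tested were higher and 4 lower in GW9662, or 28.6% called, and 1 was higher and 1 lower in rosiglitazone. The 14 genes of the endocrine pancreas, where pax6b is also expressed, summed to 66.9 to 71.0, 58.4 to 65.6 and 69.9 to 83.0 FPKM. These sums were lowest in GW9662 and overlapped between DMSO and rosiglitazone. Their largest parts in DMSO were arxa, neurod1 and isl1 (18.6, 15.3 and 14.4 FPKM), which are also in other lists here. Of 9 tested, 2 were higher in GW9662 (insb by 0.56 and hhex by 0.58). The 3 lower were sst1.2, gcgb and nkx2.2a (by 1.75, 1.79 and 0.59). All DMSO libraries of insb were under 1 FPKM (0.544 to 0.890), so it reached the filter only through the exposed groups. All GW9662 libraries of gcgb were under 1 FPKM (0 to 0.417, on 8 fragments in the group), so it reached the filter only through the other groups. The calls of insb and gcgb are therefore not independent of the filter. In rosiglitazone 1 was higher and 0 lower. The other insulin gene, ins, was too low to be tested, as were pdx1 and gcga. In DMSO, GW9662 and rosiglitazone, ins averaged 0.573, 0 and 0.628 FPKM, on 19, 0 and 22 fragments per group. Means were 0.342, 0.0977 and 0.473 FPKM for pdx1, and 0.187, 0.227 and 0.283 FPKM for gcga. The part of these tissues in the differences of the 9 genes was not tested.

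Coding neighbours of the 9 genes on the chromosome did not always share their direction. Next to six3b, which rose in GW9662, six2b lies 6678 bases away and fell by 1.06 (limma adjusted p = 5.91e-06). Next to rx3, grp, the gene of gastrin-releasing peptide, lies 6663 bases away and fell by 1.18 (limma adjusted p = 1.66e-05). The neighbour of six6b in its cluster, six1b, lies 25084 bases away and differed by -0.18 (limma adjusted p = 0.127), and elp4, 5085 bases from pax6b, by 0.01 (limma adjusted p = 0.967). Next to pax6a, wt1a lies 128444 bases away and fell in GW9662 by 0.56 (limma adjusted p = 0.00367), the direction of pax6a. On the other side of pax6b, rcn1 rose there by 0.22 (limma adjusted p = 0.00255). Beside lhx2b, fut9b rose by 0.63 (limma adjusted p = 5.14e-04). The neighbour of rx1, cherp, differed by -0.03 (limma adjusted p = 0.704).

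The genes with the most similar pattern were sought by the root mean square (RMS) difference over the 12 libraries, in log2(FPKM + 0.5) centred on each gene's mean. For rx1, whose own pattern had an RMS of 0.283, these were dtnba (0.0515) and cyp26b1 (0.0589), an enzyme that degrades retinoic acid. For six6b (own RMS 0.577) they were apoa4b.1 (0.110) and abrab (0.116), and among the listed genes myl1 (0.199) and her4.2 (0.204). For pax6a (own RMS 0.128) they were pacsin3 (0.0487) and pou3f3a (0.0501), and for pax6b (own RMS 0.206) hapln1a (0.0529) and zgc:113333 (0.0726). The progenitor gene sox19b was the nearest listed gene to both pax6a (0.0569) and pax6b (0.0914). The nearest to rx2 were dnase1l4.2 (0.104) and cxxc4 (0.109), to rx3 blvrb (0.108) and fam213b (0.122), and to six3b tpd52l2a (0.0359) and vrk3 (0.0463).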

How the data were processed

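Expression was measured by RNA-seq in 12 libraries of whole zebrafish embryos. The authors deposited 1 table of FPKM values for 31901 genes; HISAT2 2.0.5 and featureCounts 1.5.0-p3 are named per the submitters' processing notes, and no source used here names the genome build. In each library, deposited FPKM times gene length was a whole multiple of 1 step, the worth of 1 fragment, inferred from the values; dividing by it gave whole fragments for 100% of values (tolerance 0.001), and so the depth of 12772174 to 22746500 fragments per library. The deposited values were taken to log2(FPKM + 0.5), genes reaching 1 FPKM in 4 or more libraries were kept (14433), and 1 limma 3.58.1 fit (R 4.3.3, empirical Bayes with trend) over the 3 groups gave each two-sided comparison, with Benjamini-Hochberg adjustment over all genes tested. Ratios between genes were compared by exact two-sided permutation tests (scipy 1.17.1), adjusted over 12.

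Tested on simulated data for GW9662 against DMSO with 14096 genes, the fit recovered 30.6% of genes changed 1.25-fold, 59.2% at 1.5-fold, 81.6% at 2-fold and 100% at 4-fold, with 2.90% of calls false. Only 49 or 50 genes were changed at each fold, where 5196 were called in the real comparison. With fewer genes changed the adjustment is stricter, so these shares do not carry over to the real comparison. The 9 genes and the 14 other gene lists were chosen with earlier results of these data known. All 9 are given in full. From the other lists, genes named by rule were among the 4 with the smallest adjusted p under 0.05 in either comparison with DMSO. Not every list has such a gene named. For each called gene, the 2 nearest patterns among all genes tested were named, and some of those nearest among the lists. Further named genes were picked with their values in view. Chromosomal neighbours were the nearest coding gene on either side, and only some of them are named. Alternatives were the pseudocount, the filter, the scaling, the trend, limma-voom on recovered fragments, the replicate number as a block, and each library left out. No sequences are printed.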

Additional observations from a re-analysis of the deposited data

Results flagged for a closer look

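In 39 sets of 4 libraries (each gene or ratio in each group), 1 library's gap to its nearest neighbour was set against the whole range, with Dixon's critical value at the 95% level. Chance would flag about 5% of such sets, and 2 were above it. For six6b in GW9662 the share was 0.854: replicate 4, at 2.19 FPKM, lay below the others at 2.83 to 2.94. Without that library six6b differed from DMSO by -1.31 and was still called. For six3b in rosiglitazone the share was 0.8292: replicate 1, at 35.4 FPKM, lay above the others at 30.7 to 31.5. Without it the difference of six3b from DMSO was 0.01 (limma adjusted p = 0.879).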

How the results depend on the processing

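Across 22 alternative settings, six6b, rx1, rx2, six3b and pax6b kept their call and direction in GW9662 against DMSO, as did six6b in rosiglitazone against DMSO and six6b, rx1, pax6a and pax6b in GW9662 against rosiglitazone. The call of pax6a in GW9662 against DMSO held in 15 of 22, and was also lost without the trend (limma adjusted p = 0.0686). In rosiglitazone against DMSO the number called was 2 under median-ratio scaling and 2 with the replicate number as a block, pax6a being added (limma adjusted p = 0.0466 and 0.0453), and 1 to 2 with each library left out. With the block, 7 genes were called in GW9662 against DMSO and 6 against rosiglitazone. Residual correlations of same-numbered libraries ran from -0.0502 to 0.228 in GW9662 against DMSO. They ran from -0.0103 to 0.0751 in rosiglitazone against DMSO and from 0.0377 to 0.199 between the exposures. The numbers were therefore not taken to pair libraries.

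With each library left out, 6 to 7 genes were called in GW9662 against DMSO and 4 to 7 against rosiglitazone. Directions of uncalled differences turned: lhx2b ranged from -0.16 to 0.0587 in GW9662 and -0.10 to 0.10 in rosiglitazone against DMSO, and -0.17 to 0.0490 between the exposures. In rosiglitazone against DMSO, rx1 ranged from -0.0220 to 0.0126, rx3 from -0.0523 to 0.14, the log2 ratio of pax6a to pax6b from -0.0785 to 0.0235 and that of rx3 to rx1 plus rx2 from -0.000106 to 0.241. The log2 ratio of six3a to six3b ranged from -0.103 to 0.0581 between the exposures. The cause was not tested. Depth limits six3a most, at 43 fragments in its lowest library.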

Other observations

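In each group lhx2b was higher in replicates 2 and 3 than in replicates 1 and 4, a pattern looked for after its values were seen. Over all genes tested, 357 (2.47%) showed it in all 3 groups, with a median gene length of 4947 bases, and 238 (1.65%) showed the opposite, with a median of 1980 bases. The median over all genes tested was 2339 bases, and lhx2b was the only one of the 9 genes with either pattern. Whether 2.47% and 1.65% exceed the shares that unrelated replicate numbers would give was not tested.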
